A study of Mus musculus with 8 samples.

Results

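The genes described here encode 10 proteins that hold back mTORC1 or sit in the branch that reports amino acids to it, measured in mouse tibialis anterior, a shin muscle made mostly of fast fibres. They are the sestrins Sesn1, Sesn2 and Sesn3, the stress-induced inhibitors Ddit4 and Ddit4l, the mTOR-bound inhibitor Deptor, the GTPase Rragd and its regulator Flcn, the GATOR1 subunit Depdc5 and Tsc1. Members were chosen by gene symbol: every transcript cluster (the array's gene-level unit) whose only symbol was among the 10. This gave 1 cluster for each of the 10 genes. In the deposited data, 14860 genes had a cluster with a single symbol. The fed group was male mice aged 8 weeks with food ad libitum, and the fasted group was male mice of the same age without food for 24 h; the strain is not given in the sources used here. Each array held RNA pooled from 3 mice, and 4 experiments with 1 fed and 1 fasted pool each gave 4 arrays per group.

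mTORC1 is the kinase complex that drives protein synthesis and growth and represses autophagy when amino acids and insulin are plentiful. It is switched on at the lysosome, where Rag GTPases recruit it and the small GTPase Rheb activates it. The TSC complex, built on Tsc1 and Tsc2, switches Rheb off, and GATOR1, which holds Depdc5, switches the RagA and RagB subunits off. In skeletal muscle, lower mTORC1 activity during fasting accompanies slower protein synthesis and faster protein breakdown.

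All values are log2 expression values as deposited, and a difference is the fasted minus the fed value. A difference is said to have risen or fallen when its p, adjusted over all clusters of the table, was under 0.05 in limma's test with the experiment as a block. By that rule 137 of 16755 clusters, 0.818%, were called. The array medians lay between 5.76 and 5.91, and all 8 measured markers of fast fibres, such as Acta1 and Actn3, had mean levels of at least 10.7 in both groups. None of the 38 measured markers of other cells, in 8 lists (slow fibre, endothelial, adipocyte, fibroblast, macrophage, satellite cell, Schwann cell and erythroid), passed the test. The smallest adjusted p, 0.0899, was that of the fibroblast marker Lum, which was at -0.95, with every fasted pool below every fed pool. The collagen genes Col1a1 (-0.39) and Col3a1 (-0.30) and the endothelial receptor gene Kdr (-0.48) were among those lower in all 4 experiments, with overlapping groups and adjusted p of 0.301, 0.480 and 0.163. The endothelial marker Pecam1 (0.34), the fibroblast marker Pdgfra (0.29) and the macrophage marker Cd68 (0.27) were among those higher in all 4, with adjusted p of 0.292, 0.369 and 0.391. Over the 6 fibroblast markers, 4 differences lay below 0 and 2 above, and their summed linear level ran from 2190 to 3157 in the fed and from 2191 to 3147 in the fasted pools. The part of such cells in the results below was not tested. In pooled whole muscle, a change in the number of cells of a type and a change in RNA per cell cannot be told apart.

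Of the 10 genes, 2 rose (Sesn1 and Ddit4), 1 fell (Ddit4l) and 7 did not pass, where 0.531% of all clusters rose and 0.286% fell. The median difference of the 10 was -0.02, the same as the median of all clusters, -0.02. The promoter sequences of the 3 genes that passed are shown because a pair of them rose together and the third, a paralog of one of the pair, fell. They are the 250 bases before the annotated transcript start, 5′ to 3′ on the gene's own strand, from RefSeq on GRCm38.p6, and Sesn1 has an upstream and a downstream start. Capitals mark GC boxes (GGGCGG) and CCAAT boxes on either strand, which were chosen after the sequences had been seen.
Sesn1, upstream start, chr10:41810324-41810573, plus strand: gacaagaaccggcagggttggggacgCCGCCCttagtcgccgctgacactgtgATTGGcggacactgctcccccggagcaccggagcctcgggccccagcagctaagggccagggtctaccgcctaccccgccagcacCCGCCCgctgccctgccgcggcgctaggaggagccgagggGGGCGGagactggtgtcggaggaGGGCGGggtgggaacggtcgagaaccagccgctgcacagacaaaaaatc
Sesn1, downstream start, chr10:41887189-41887438, plus strand: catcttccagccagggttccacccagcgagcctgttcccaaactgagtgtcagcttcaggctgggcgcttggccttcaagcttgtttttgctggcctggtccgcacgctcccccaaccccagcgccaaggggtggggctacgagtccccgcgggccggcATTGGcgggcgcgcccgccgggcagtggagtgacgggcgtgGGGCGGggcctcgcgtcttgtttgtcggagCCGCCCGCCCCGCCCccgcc
Ddit4, chr10:59951771-59952020, minus strand: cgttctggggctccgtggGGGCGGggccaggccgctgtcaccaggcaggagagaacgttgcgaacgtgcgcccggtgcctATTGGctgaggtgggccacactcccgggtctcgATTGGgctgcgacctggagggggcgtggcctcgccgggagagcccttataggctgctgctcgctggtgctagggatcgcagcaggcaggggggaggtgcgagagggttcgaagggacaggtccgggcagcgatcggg
Ddit4l, chr3:137623422-137623671, plus strand: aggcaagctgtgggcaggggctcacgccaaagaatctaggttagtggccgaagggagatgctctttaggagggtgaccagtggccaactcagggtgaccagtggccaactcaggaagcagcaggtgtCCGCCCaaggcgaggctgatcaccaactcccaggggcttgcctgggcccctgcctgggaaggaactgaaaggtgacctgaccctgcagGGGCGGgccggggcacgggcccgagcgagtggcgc

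Both Sesn1 windows held 4 GC boxes and 1 CCAAT box, counting overlapping matches. The Ddit4 window held 1 GC box and 2 CCAAT boxes, and the Ddit4l window held 2 GC boxes and no CCAAT box. Among the genes not called, the Sesn2 window held 1 GC box and 2 CCAAT boxes, and the Sesn3 window 1 and 4. The Depdc5 window held 4 GC boxes and no CCAAT box, and the Rragd, Flcn and Tsc1 windows held neither. A link between the boxes and the direction of a difference was not tested. Among all 32851 promoter windows of this length, 32.74% held a GC box and 33.85% a CCAAT box. The windows were also searched on both strands for a FoxO element (GTAAACA), an ATF4 composite element (TGATGNAA), the E-box of TFEB and TFE3 in a short (CACGTG) and a long form (TCACGTGA, which contains the short one), and the core of a glucocorticoid response element (ACANNNTGT). Of these 5 patterns, 0 were found in the 10 windows that RefSeq gave for 9 of the 10 genes (all but Deptor), where 3.17%, 3.45%, 6.02%, 0.79% and 5.84% of all windows held them, in that order. The absence of these letters says nothing of binding outside the windows or to other forms of the elements. GC made up 70.0% and 71.2% of the Sesn1 windows, 70.0% of the Ddit4 window and 65.2% of the Ddit4l window, against a median of 52.4% over all windows. The array cluster of Sesn1 gives 1 value for the gene, so the 2 starts were not measured separately.

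The sestrins are stress-inducible proteins that bind GATOR2 and so free GATOR1 to restrain mTORC1. SESN2 is known in human cells as a leucine sensor that lets go of GATOR2 when leucine is bound. Sesn1, known as a target of p53 (transcript cluster 6767402), had values of 6.86, 6.91, 6.84 and 6.83 in the fed pools of experiments 1 to 4, and of 8.82, 8.27, 8.36 and 8.05 in the fasted pools. The groups were far apart: the lowest fasted pool lay above the highest fed pool, and the fed pools lay close together while the fasted pools spread out, with experiment 1 highest. The mean went from 6.86 ± 0.04 to 8.38 ± 0.33 (SD, n = 4), a rise of 1.51 ± 0.14 (SE; adjusted p = 0.00639) on the log2 scale. This is a 2.86-fold difference with a 95% interval from 2.28 to 3.58, and the fold in single experiments was 3.91, 2.56, 2.87 and 2.32. By size it was the 7th largest rise among the 14860 genes. The call held in each of 11 alternative settings, with adjusted p from 0.00061 to 0.0413.

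Sesn2 (cluster 6917496), a sestrin induced by ATF4 and p53, read 5.25, 5.10, 5.01 and 4.99 in the fed and 5.15, 5.13, 5.29 and 5.21 in the fasted pools. These groups overlapped, and experiment 1 went the other way from the other experiments. The difference was 0.11 ± 0.11 (SE, adjusted p = 0.859), with a 95% interval from -0.15 to 0.37. It was 0.18 without experiment 1, 0.05 without experiment 3 and 0.07 without experiment 4. For Sesn3 (cluster 6987065), a sestrin that FoxO factors are known to induce, the fed pools gave 6.14, 6.10, 6.12 and 6.28 and the fasted pools 6.15, 5.89, 6.0 and 5.90. Fasted values were lower in 3 of 4 experiments, and the fasted pool of experiment 1 lay among the fed pools. This gave a difference of -0.17 ± 0.11 (SE, adjusted p = 0.677; interval from -0.43 to 0.08), and -0.11 without experiment 4. Both intervals leave out a change of the size seen for Sesn1, whose own interval ran from 1.19 to 1.84. However, Sesn2 read below the lowest array median, 5.76, in every pool. At such a level the signal may be background and a difference may be compressed, which was not tested.

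The responses of the sestrins were also compared with each other within experiments. The SE of a comparison between paralogs comes from the 4 experiments alone. That of a single gene comes from limma's fit, which also uses the variance of other clusters. The response of Sesn1 exceeded that of Sesn2 by 1.41 ± 0.23 (SE, n = 4), in 4 of 4 experiments and by 1.00 to 2.07. It exceeded that of Sesn3 by 1.69 ± 0.09, again in 4 of 4 experiments and by 1.56 to 1.96. An exact two-sided sign-flip permutation test gave p = 0.125 for each, which is the smallest value that 4 experiments allow, and 0.167 after Benjamini-Hochberg adjustment over the 4 pairs of paralogs compared. The response of Sesn2 exceeded that of Sesn3 by 0.28 ± 0.15, in 3 of 4 experiments (exact permutation p = 0.25, adjusted 0.25). The low level of Sesn2 limits the comparisons that include it.

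**Figure D1:**
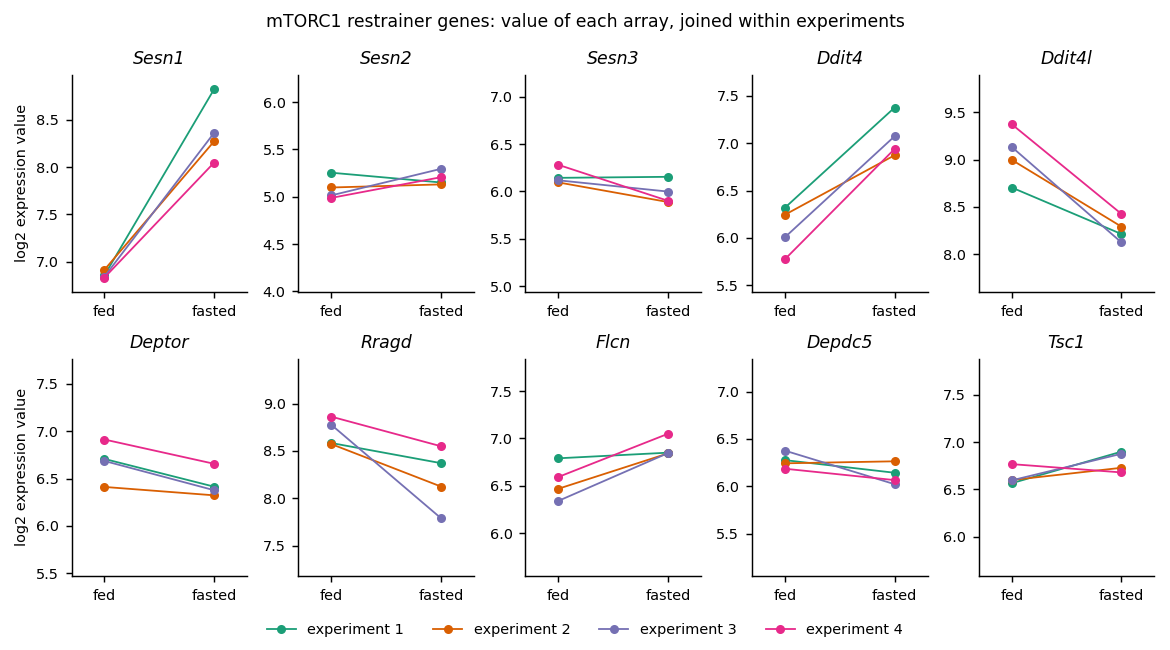
Log2 expression value (vertical axis, the same span in every panel but a different range) of each of the 10 genes in the 4 fed and 4 fasted pools, with the pools of an experiment joined by a line. The Sesn1 and Ddit4 lines climb and the Ddit4l lines drop in all 4 experiments, while the Sesn2 lines stay nearly level.

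Ddit4, also called REDD1, and its paralog Ddit4l, REDD2, restrain mTORC1 by way of the TSC complex. Ddit4 is induced by glucocorticoids, low oxygen and lack of amino acids, and Ddit4l is known for its high expression in skeletal muscle. Ddit4 (cluster 6774264) had values of 6.32, 6.25, 6.01 and 5.77 in the fed pools and of 7.38, 6.87, 7.07 and 6.94 in the fasted pools. No fasted pool overlapped the fed pools, and the response of experiment 2, 0.63, was below those of the other experiments, which lay between 1.06 and 1.17. The rise was from 6.09 ± 0.25 to 7.07 ± 0.22 (SD, n = 4), or 0.98 ± 0.12 on the log2 scale (SE, adjusted p = 0.0192), a 1.97-fold difference with an interval from 1.62 to 2.40. The call was lost without experiment 1 (adjusted p = 0.0939) and without experiment 4 (0.0910), where the difference was 0.95 and 0.92.

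Ddit4l (cluster 6901680) went the opposite way. Its values were 8.70, 9.0, 9.13 and 9.37 in the fed pools and 8.21, 8.29, 8.12 and 8.43 in the fasted pools, with every fasted pool below every fed pool. It fell by 0.79 ± 0.12 on the log2 scale (SE, adjusted p = 0.0373), from 9.05 ± 0.28 to 8.26 ± 0.13 (SD, n = 4), to 57.9% of the fed level with an interval from 47.6% to 70.5%. The fall was smallest in experiment 1, at -0.49, where the fed pool was lowest, and largest in experiment 3, at -1.01. Of the 14860 genes ranked from the largest rise to the largest fall, it stood at place 14835. With 3 of the 4 experiments the call was lost whichever was dropped (adjusted p from 0.0746 to 0.176), as it was after median centring of the arrays (0.0982), while the difference stayed between -0.89 and -0.71.

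The response of Ddit4 exceeded that of Ddit4l by 1.77 ± 0.19 (SE, n = 4), in 4 of 4 experiments and by 1.33 to 2.11. The exact permutation p was again the smallest possible, 0.125 (adjusted 0.167). Fasted muscle thus held more of the mRNA of one REDD paralog and less of the other.

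**Figure D2:**
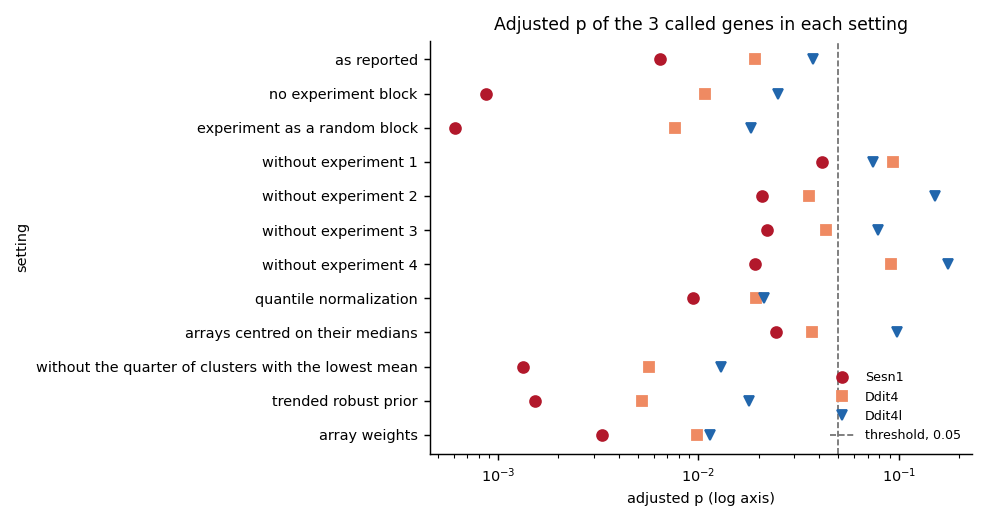
Adjusted p (horizontal log axis) of Sesn1, Ddit4 and Ddit4l as reported and in 11 alternative settings (vertical axis), with the threshold of 0.05 dashed. Sesn1 stays left of the line throughout, Ddit4 crosses it without experiment 1 or 4, and Ddit4l crosses it without any 1 experiment and after median centring.

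Deptor is an inhibitor that binds the mTOR kinase itself. Deptor (cluster 6830505) read 6.71, 6.41, 6.69 and 6.91 in the fed and 6.41, 6.32, 6.38 and 6.66 in the fasted pools, lower after fasting in 4 of 4 experiments but with overlapping groups. The difference was -0.24 ± 0.10 (SE, adjusted p = 0.465), with an interval from -0.48 to 0.00.

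RagD, the product of Rragd, forms a dimer with RagA or RagB, and folliculin, the product of Flcn, is the GTPase-activating protein that acts on RagC and RagD. Rragd and Flcn are known targets of TFEB and TFE3, the transcription factors that mTORC1 keeps out of the nucleus. Folliculin helps amino acids to activate mTORC1 towards some substrates, so neither gene is an inhibitor in the sense of Deptor. Rragd (cluster 6912517) had values of 8.58, 8.57, 8.78 and 8.86 in the fed pools against 8.37, 8.12, 7.79 and 8.55 in the fasted pools. All fasted pools lay below all fed pools, the nearest pair differing only slightly, and experiment 3 gave the largest difference, -0.99, against -0.21 to -0.45 in the others. The mean difference was -0.49 ± 0.15 (SE, adjusted p = 0.234; interval from -0.83 to -0.15), and -0.32 without experiment 3. The interval lay wholly on the negative side, but unlike the adjusted p it takes no account of the number of clusters tested.

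Flcn (cluster 6788701) had values of 6.79, 6.47, 6.34 and 6.59 in the fed and 6.85, 6.84, 6.84 and 7.05 in the fasted pools. Every fasted pool lay above every fed pool, but in experiment 1 the pools differed by only 0.06. The difference was 0.35 ± 0.12 (SE, adjusted p = 0.298; interval from 0.08 to 0.62), and 0.45 without experiment 1. Here the interval lay wholly on the positive side, with the same limit as for Rragd. Neither Rragd nor Flcn passed in any of the 11 alternative settings, where the smallest adjusted p were 0.114 and 0.113.

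Depdc5 encodes the GATOR1 subunit that contacts the Rag GTPases, and Tsc1 encodes the scaffold of the TSC complex. Depdc5 (cluster 6929762) read 6.28, 6.24, 6.38 and 6.19 in the fed and 6.14, 6.26, 6.02 and 6.07 in the fasted pools, a difference of -0.15 ± 0.11 (SE, adjusted p = 0.754; interval from -0.40 to 0.11). Tsc1 (cluster 6875969) read 6.57, 6.60, 6.60 and 6.77 in the fed and 6.90, 6.73, 6.88 and 6.68 in the fasted pools, a difference of 0.16 ± 0.11 (SE, adjusted p = 0.722; interval from -0.10 to 0.43). In both genes the groups overlapped, and 1 experiment went against the other 3, experiment 2 for Depdc5 and experiment 4 for Tsc1. The difference of Depdc5 was -0.08 without experiment 3, and that of Tsc1 was 0.11 without experiment 1, 0.25 without experiment 4 and 0.08 with array weights.

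Over the 10 genes, 3 were higher in all 4 experiments (Sesn1, Ddit4 and Flcn) and 3 were lower in all 4 (Ddit4l, Deptor and Rragd), where 8.61% and 10.1% of all clusters were. The fasted pools lay wholly above the fed pools in 3 of the 10 genes and wholly below in 2, against 3.55% and 3.22% of all clusters. Since these genes were chosen with earlier results of the same arrays known, the counts describe them and carry no test.

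**Figure D3:**
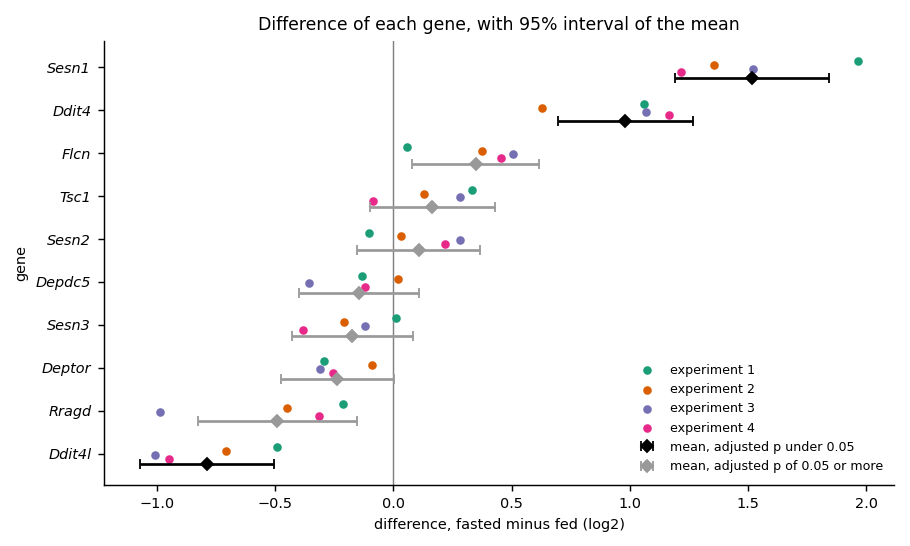
Difference between fasted and fed muscle (horizontal axis, log2) for each of the 10 genes, with 1 coloured point per experiment and, below the points, the mean with its 95% interval. Sesn1 (1.51) and Ddit4 (0.98) lie to the right and Ddit4l (-0.79) to the left, and the other 7 means lie between -0.49 and 0.35.

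The partners of these genes in the mTORC1 pathway were read from 8 lists. The lists held 66 names, of which Lars and Lars1 stand for the same gene, and 51 genes were measured. Of the 51, 2 rose and none fell, where 0.531% and 0.286% of all clusters did. Their median difference was 0.02 against -0.02 for all clusters. The genes that rose were Lpin1 (0.69 ± 0.10 SE, adjusted p = 0.0330), a phosphatidate phosphatase that mTORC1 phosphorylates, and Atg13 (0.69 ± 0.12, adjusted p = 0.0490), a subunit of the ULK1 autophagy kinase complex. Their values were higher in 4 of 4 experiments. Both calls were lost with 3 experiments whichever was dropped, the adjusted p reaching 0.154 for Lpin1 and 0.205 for Atg13, and after median centring (0.0591 and 0.0983), and that of Atg13 also without the experiment block (0.0510).

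Kinase complex subunits showed no call in 10 of 10 measured genes. Mtor, the kinase, was at 0.19 ± 0.10 (adjusted p = 0.589), Rptor, which brings substrates to mTORC1, at -0.08 ± 0.11 (adjusted p = 0.909), and Mapkap1, a subunit of mTORC2, at -0.32 ± 0.11 (adjusted p = 0.288). Beside Tsc1, the partner Tsc2 was at -0.05 ± 0.10 and Tbc1d7 at -0.23 ± 0.10, and their target Rheb was at 0.28 ± 0.11 (adjusted p of 0.954, 0.465 and 0.395). Beside Depdc5, the other GATOR1 subunits Nprl2 and Nprl3 were at -0.15 ± 0.12 and 0.06 ± 0.10 (adjusted p of 0.780 and 0.943). The fed and fasted means of Nprl2 and Nprl3 lay below the lowest array median, 5.76. At such a level the signal may be background, which was not tested. The sestrin-binding complex GATOR2 had differences between -0.21 (Sec13) and 0.25 (Mios) in 5 measured genes.

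Beside Rragd, the other measured Rag genes Rraga and Rragc were at -0.07 ± 0.13 and 0.05 ± 0.13 (adjusted p of 0.948 and 0.963). The Ragulator subunits Lamtor2 and Lamtor5, which anchor the Rag GTPases to the lysosome, were at -0.30 ± 0.17 and -0.22 ± 0.10 (adjusted p of 0.60 and 0.522). Fnip1 and Fnip2, the partners of folliculin, were not analysed here. Amino acid sensors lay between -0.31 (Castor2) and 0.23 (Lars and Castor1) in 6 measured genes, with none past the test. Upstream kinases lay between -0.11 (Prkaa2, an AMPK subunit) and 0.49 (Gsk3b, adjusted p = 0.200) in 6 measured genes, also with none past the test. Among the substrates, the autophagy kinase gene Ulk1 was at 0.64 ± 0.11 (adjusted p = 0.0568).

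Lists of genes driven by the regulators known to induce sestrins and Ddit4 were set beside them. The lists were drawn up with earlier results of these arrays known, so their counts are descriptions and no independent evidence of a direction. Over all clusters, 0.531% rose and 0.286% fell, and the median difference was -0.02. In a list of FoxO targets without the sestrins, 3 of 11 measured genes rose and none fell: the ubiquitin ligase gene Fbxo32 (2.13 ± 0.13 SE, adjusted p = 0.00084), Pdk4, which restrains glucose oxidation (1.91 ± 0.11, adjusted p = 0.00084), and the autophagy gene Gabarapl1 (1.18 ± 0.11, adjusted p = 0.00699). The list median was 0.58, and all 11 differences were above 0. The 11 include the FoxO genes Foxo1 (0.35) and Foxo3 (0.32) themselves, and Klf15, which the glucocorticoid receptor list below also holds. The sestrin that FoxO factors are best known to induce, Sesn3, was at -0.17, as above.

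In a list of glucocorticoid receptor targets without Ddit4, 4 of 8 measured genes rose and none fell, with a median of 0.71. They were the metallothionein gene Mt2 (1.80 ± 0.14, adjusted p = 0.00307), the glutamine synthetase gene Glul (1.16 ± 0.13, adjusted p = 0.0136), the receptor co-chaperone gene Fkbp5 (1.28 ± 0.15, adjusted p = 0.0141) and Errfi1, an inhibitor of EGF receptor signalling (0.75 ± 0.11, adjusted p = 0.0356). The salt-handling kinase gene Sgk1 of the same list was at -0.23 ± 0.12 (adjusted p = 0.555).

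In a list of p53 targets without sestrins, 2 of 10 measured genes rose and none fell, the cell cycle inhibitor Cdkn1a (1.76 ± 0.11, adjusted p = 0.00084) and the stress gene Gadd45a (1.21 ± 0.11, adjusted p = 0.00513). Next by adjusted p was Eda2r at 0.63 ± 0.16 (adjusted p = 0.177), with every fasted pool above every fed pool. The p53 targets Mdm2 and Ccng1 were at 0.22 ± 0.13 and -0.24 ± 0.12 (adjusted p of 0.659 and 0.541), and the list median was 0.15. Among the 10 differences, 8 lay above 0 and 2 below. Of 11 measured genes in a list of ATF4 targets, which counts Atf4 itself, 2 rose and none fell, with a median of 0.11. Those that rose were Ddit4 and Ppp1r15a, which directs dephosphorylation of eIF2alpha (1.24 ± 0.14, adjusted p = 0.0134). Chac1 did not pass, at 0.61 ± 0.11 (adjusted p = 0.0568), with every fasted pool above every fed pool. The amino acid synthesis gene Asns of that list was at -0.08 ± 0.12 (adjusted p = 0.934) and Sesn2 at 0.11, as above. Both Asns and Sesn2 read below the lowest array median, 5.76, in every pool. Over the 11 genes, 7 differences lay above 0 and 4 below. Of 10 TFEB and TFE3 targets measured beside Flcn and Rragd, 1 rose, the proton pump subunit Atp6v1h (0.97 ± 0.13, adjusted p = 0.0268), and none fell, with a median of 0.07. Sqstm1 was at 0.63 ± 0.12 (adjusted p = 0.0620), with every fasted pool above every fed pool. Ppargc1a was at -0.39 ± 0.13 (adjusted p = 0.292), with every fasted pool below every fed pool. Of the 10 differences, 6 lay above 0 and 4 below. Which of these regulators acted on the 10 genes was not tested.

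**Figure D4:**
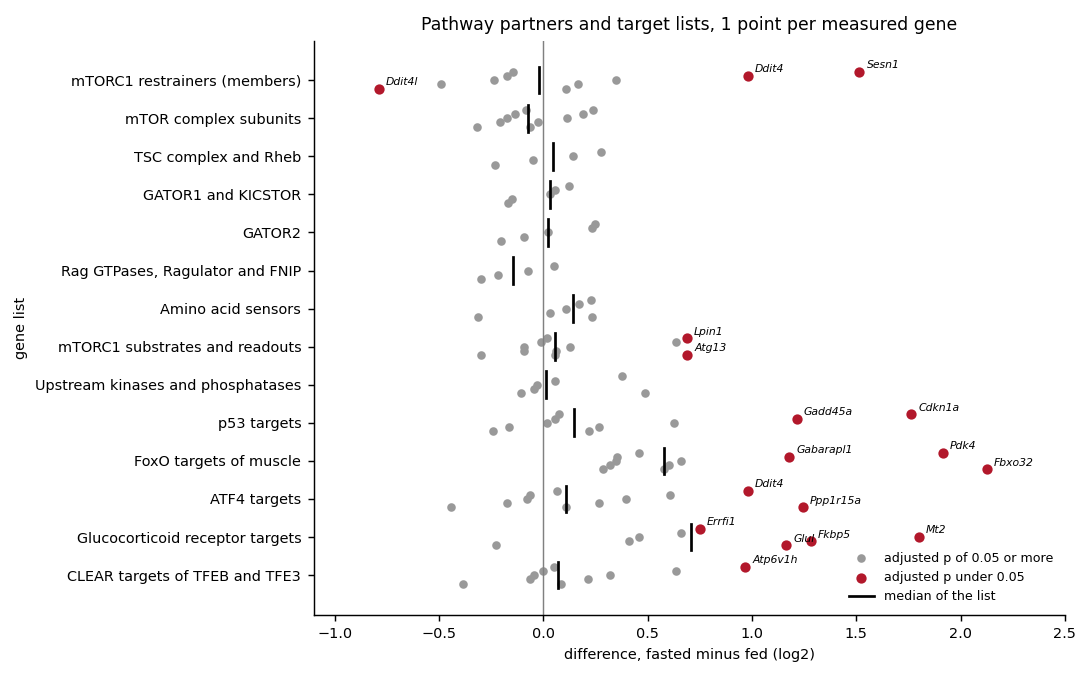
Difference between fasted and fed muscle (horizontal axis, log2) for each measured gene of the 10 restrainers, of 8 lists of mTORC1 pathway partners and of 5 lists of regulator targets, with red points and names for genes past the test and black bars for list medians. Red points are few among the pathway partners (Lpin1 and Atg13), and the medians of the FoxO (0.58) and glucocorticoid (0.71) lists lie farthest to the right.

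The genes whose values over the 8 arrays were most like those of each called gene were also found, by Pearson's r among 14859 other genes. These r include the difference between the groups, and the arrays share it, so r is given as a description. The genes nearest to Sesn1 were Acss1, a mitochondrial acetyl-CoA synthetase gene (r = 0.989), Zwint, a kinetochore gene (0.983), and Apod, a lipid-binding apolipoprotein gene (0.980), with differences of 0.99, 1.09 and 0.87. Nearest to Ddit4 were Cyp1b1, a cytochrome P450 gene (r = 0.979), Vegfd, a lymphatic growth factor gene (0.978), and the secretoglobin gene Scgb1a1 (0.977), with differences of 0.41, 1.05 and 0.40. Of these, Vegfd passed the test, and Cyp1b1 and Scgb1a1 did not (adjusted p of 0.211 and 0.177). Nearest to Ddit4l were the peroxisomal transporter gene Abcd2 (r = 0.979), Fam118b (0.976) and the muscle chloride channel gene Clcn1 (0.975), with differences of -0.99, -0.45 and -0.84. Here Abcd2 and Clcn1 passed, and Fam118b did not (adjusted p = 0.171).

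Within the pathway and target lists, 104 other genes, the nearest to Sesn1 were Fkbp5 (r = 0.970), Fbxo32 (0.966) and Glul (0.965). For Ddit4 they were Mt2 (0.961), Sesn1 (0.958) and Fkbp5 (0.925). For Ddit4l they were the stress transcription factor gene Ddit3 (0.889), Ccng1 (0.886) and Rragd (0.853), which were at -0.44, -0.24 and -0.49, none past the test.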

How the data were processed

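Total RNA of each pool was amplified to cDNA, labelled with biotin and hybridised to a mouse exon array, per the labels' protocols. The authors deposited log2 expression values made with RMA, per the submitters' processing notes; no version is given in the sources used here. The values ran from 1.08 to 13.3 and were read as log2. Detection calls were not used here, so a low level may be background, and RMA compresses differences at low signal. Symbols came from the platform annotation: 14996 of 16755 clusters had 1 symbol, 1019 several and 740 none, and several or none were tested but not named. The number of arrays limits the precision.

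Groups came from the sample titles. Experiment numbers pair the pools, as the description of the series gives both groups in each experiment; the paired arrays' deviations from their group means correlated at -0.18, 0.05, -0.14 and 0.44. The fit used limma 3.58.1 under R 4.3.3 (lmFit and untrended eBayes) on all 8 arrays with experiment as a fixed block, 3 residual and 4.84 prior degrees of freedom and Benjamini-Hochberg adjustment over 16755 clusters. The fit was tested on simulated data. P-values measure how the difference varied over 4 experiments, not the spread between single mice. The 11 alternatives were no block, a random block, leaving out each experiment, quantile normalization, median centring, dropping the 0.25 of clusters with the lowest mean, a trended robust prior and array weights.

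The members, gene lists, motifs and tests were chosen with earlier results of these data known. All 10 members are named, whatever their values. Also named were up to 3 genes per list by smallest adjusted p, fixed partners (Tsc2, Rheb, Nprl2, Nprl3, Rragc, Fnip1, Mtor, Rptor) and the genes most like each called member; further genes were named after their values were seen. Promoter sequences are from RefSeq, GRCm38.p6, matched by symbol.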

Additional observations from a re-analysis of the deposited data

Results flagged for a closer look

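Among 20 groups of 4 arrays (10 genes, fed and fasted), 2 held an array far from the other 3 by Dixon's criterion, where chance gives about 1 in 20. The fasted pool of experiment 4 had a Flcn value of 7.05, against 6.84 to 6.85 in the other fasted pools. The fed pool of experiment 4 had a Tsc1 value of 6.77, against 6.57 to 6.60 in the other fed pools. Without experiment 4 the difference of Flcn was 0.31 and that of Tsc1 0.25, and neither passed.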

How the results depend on the processing

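Each of the 10 genes kept the sign of its difference in all 11 alternatives, and Sesn1 alone kept its call in all of them, against 9 for Ddit4 and 6 for Ddit4l. Fits without 1 experiment rest on 6 arrays. There, the count of all clusters past the threshold was 16 to 94 against 137, that of the 10 genes 1 to 2 higher and 0 lower, and that of pathway genes 0 higher. After median centring the counts were 45 clusters, 0 of the 10 genes lower and 0 pathway genes higher. Without the replicate block they were 185 clusters and 1 pathway gene (Lpin1), and the calls of the 10 genes were the same. More clusters passed under array weights (265), a filter on low means (240), a random block (229) and a trended, robust prior (216); the cause was not tested. The differences between paralogs were recomputed only without each experiment and after quantile normalization, and kept their sign there; without 1 experiment they ran from 1.19 to 1.54 (Sesn1 less Sesn2), 1.60 to 1.73 (Sesn1 less Sesn3), 0.18 to 0.41 (Sesn2 less Sesn3) and 1.65 to 1.91 (Ddit4 less Ddit4l), where 3 experiments allow no exact p below 0.25. Averaging clusters of a gene was not run, as each of the 10 genes had 1 cluster.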
